A study of Mus musculus with 8 samples.

Results

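The 9 genes described here encode transcription factors that pattern the jaw and the teeth. *Msx1*, *Msx2*, *Barx1*, *Pitx1*, *Lhx6*, *Lhx8* and *Alx1* encode homeodomain proteins, *Pax9* encodes a paired-box protein, and *Hand2* encodes a basic helix-loop-helix protein. They were taken from the RPKM table (reads scaled by gene length and by the library total) by gene name, with no measured value in the rule itself, and the set was chosen with earlier results of these data known. All 9 were found among the 23358 genes of the table, each on a single row.

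The libraries were RNA-seq of cervical loop (CL) tissue dissected from the mandibles of 4-week-old C57BL/6 mice. The CL is the growing end of the mouse incisor. Its head (CLH) holds the dental epithelial stem cells (DE-SCs), and its tail (CLT) holds their progenies, which become the enamel-forming ameloblasts. The cKO mice were *Med1* fl/fl with Krt14-Cre, which removes exons 8 to 10 of *Med1* (a subunit of the Mediator coactivator complex) in cells that have expressed the keratin 14 promoter. That promoter is active in epithelium, so the design leaves *Med1* in mesenchymal cells. The Ctrl mice were littermates without Cre, kept on the same background and sampled at the same age, and the sexes were not distinguished. Each of the 4 groups (Ctrl CLH, cKO CLH, Ctrl CLT and cKO CLT) had 2 libraries, called biological duplicates by the study. The duplicates came from 2 litters, with 6 CL tissues pooled in each group, so that a library is not a single animal.

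Much of what is known of these factors comes from the embryonic first pharyngeal arch. Epithelial signals of the BMP, FGF and endothelin families switch them on in restricted domains of the neural crest-derived mesenchyme. *Msx1* and *Pax9* act together in dental mesenchyme upstream of *Bmp4*, and teeth stop at the bud stage without either gene. *Lhx6* and *Lhx8* mark the oral side of the arch and *Barx1* its molar field. *Pitx1* marks the lower jaw, *Hand2* the ventral arch, and *Alx1* the frontonasal and eye region. *Msx2* differs in being used by epithelium as well, in the enamel organ and in the hair follicle. *Msx1* and *Msx2* are among the genes that the study itself displayed from these libraries, so their directions are not independent evidence.

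The library totals recovered from the table were 26591612 to 34420180 reads, of which 82.2% to 85.6% lay on genes. *Med1* itself was not lower in cKO CLT, where both libraries lay above both Ctrl CLT libraries. In CLH both cKO libraries lay under both Ctrl libraries. Its RPKM was 4.83 and 8.71 for Ctrl CLT against 9.15 and 8.96 for cKO CLT, with 7.71 and 9.12 for Ctrl CLH against 7.10 and 7.03 for cKO CLH. A whole-gene value includes reads from exons outside the deleted ones and from cells that do not express Krt14, so it is only a partial check, and the CLT libraries are called by their labels below. One library stood apart: between the 2 Ctrl CLT libraries 34.6% of the tested genes differed by more than 1.5-fold, against 0.763% to 1.12% in the other groups. For several results that rest on Ctrl CLT 1, values without it are given below as well.

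The labels call the samples dental epithelial cells, and marker genes showed that other tissues were in them. *Krt14* was read in all libraries (RPKM 178 to 649), but so was the mesenchymal collagen gene *Col1a1* (376 to 1865). A list of 6 odontoblast and bone genes summed to an RPKM of 973 to 1265 in the 4 CLH libraries and to 1115 and 1228 for Ctrl CLT, but to 1.43 and 1.13 for cKO CLT, where *Ibsp* had no read. The 7 ameloblast genes summed to 84584 and 37392 for Ctrl CLT but to 19.7 and 15.8 for cKO CLT. In the 4 CLH libraries they summed to 12504 to 14318, with 13658 and 14318 in cKO CLH. The 9 genes of dental and other mesenchyme were lower in sum but far from absent, at 2381 and 2623 in cKO CLT, 2987 and 4267 in Ctrl CLT, and 3799 to 4759 in CLH. That sum joins genes that went both ways, 2 higher and 7 lower by the fitted CLT difference. *Col3a1* had 874 and 979 in cKO CLT against 527 and 456 in Ctrl CLT, and *Lum* had 41.4 and 38.0 against 191 and 673. The median RPKM of the list was 128 and 132 in cKO CLT against 191 and 456 in Ctrl CLT. The 4 epithelial genes summed highest in cKO CLT, with 1687 and 1916 there, 1294 and 791 in Ctrl CLT, and 548 to 647 in CLH. Fewer cells of a type and less RNA per cell cannot be told apart in such bulk samples.

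Hair, skeletal muscle and melanocyte genes were highest in cKO CLT and second highest in Ctrl CLT 1. The 3 hair keratin genes summed to 4437 and 4974 in cKO CLT, 1471 in Ctrl CLT 1, 4.28 in Ctrl CLT 2 and 2.47 to 3.19 in CLH. Skeletal muscle genes gave 1776 and 1956 in cKO CLT against 648 in Ctrl CLT 1, 48.6 in Ctrl CLT 2 and 27.6 to 31.9 in CLH. Melanocyte genes gave 380 and 383 against 125, 8.16 and 2.07 to 2.43 in the same order. Schwann and nerve genes gave 83.6 and 85.2 in cKO CLT and 25.1 to 45.4 elsewhere (30.1 in Ctrl CLT 1), while endothelial genes (37.4 to 52.1) and leukocyte genes (22.2 to 47.8) varied less over the 8 libraries. Hox genes, which are active in trunk and neck tissue and silent in the first arch, showed the same split. Of 39 Hox genes in the table, 19 and 20 reached an RPKM of 1 in cKO CLT, 11 did so in Ctrl CLT 1, and 0 did so in Ctrl CLT 2 or in any CLH library. The Hox total of Ctrl CLT 1 was 32.5% of the cKO CLT mean, close to its share for the hair (31.3%), melanocyte (32.6%) and muscle lists (34.7%). The part of these tissue differences in the results below was not tested.

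**Figure D1:**
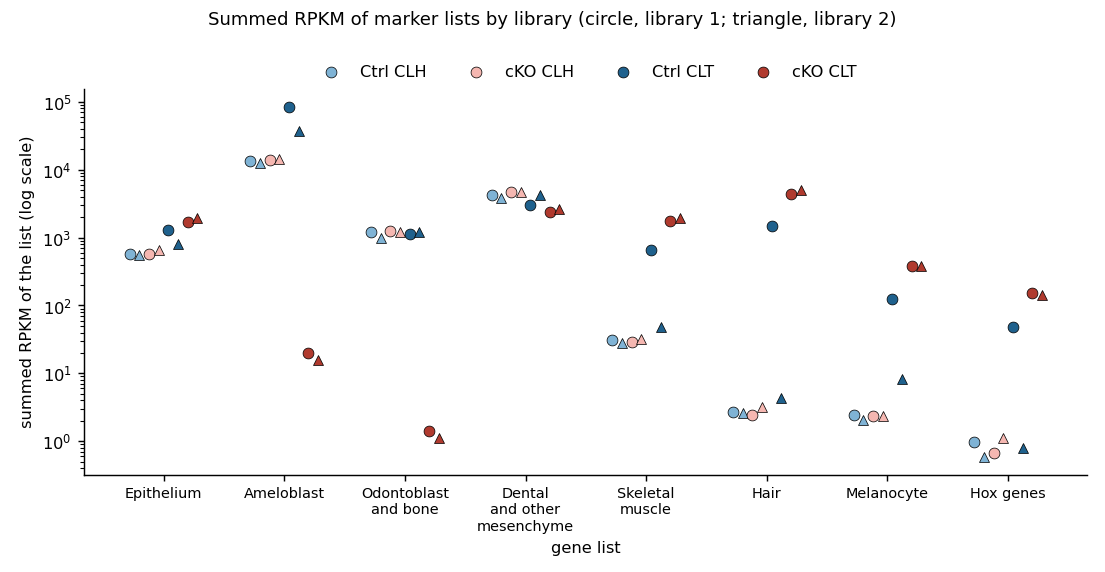
Summed RPKM of 7 marker lists and of the Hox genes (vertical axis, log scale) in the 8 libraries, coloured by group, with a circle for library 1 and a triangle for library 2. The odontoblast and ameloblast lists fall below 20 in cKO CLT only, and the hair, melanocyte and Hox lists are high in cKO CLT and in Ctrl CLT 1.

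The question of the cKO libraries is what loss of *Med1* in epithelium changes in stem cells and in their progenies. In CLT all 9 factors were lower in both cKO libraries than in both Ctrl libraries, where 35.1% of the 14148 tested genes were. By log2(RPKM + 1) and limma with Benjamini-Hochberg adjustment, 8 of the 9 could be tested and 1 of these, *Pitx1*, fell past the adjusted p threshold of 0.05 (1.68% of all tested genes did, and 0.0777% rose). *Hand2*, *Alx1* and *Lhx8* showed the largest differences without passing. Of the 8, 7 were lower at a limma unadjusted p under 0.05. Over all 14148 genes 2314 were lower and 2802 higher at that level. When all 8 libraries shared a single estimate of the spread, 7 of 8 passed (20.0% of all genes), all but *Msx2*, as did the same 7 in the 3 CLT libraries that remained without Ctrl CLT 1 (38.1% of all genes). Of the 8, 7 passed without Ctrl CLT 2 (23.0%), and 0 passed without either cKO CLT library (0.0777%). A fit that leaves 1 library in a group takes no spread from that group. The median log2 difference was -1.83 for the 8 factors and -0.01 for all genes tested.

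**Figure D2:**
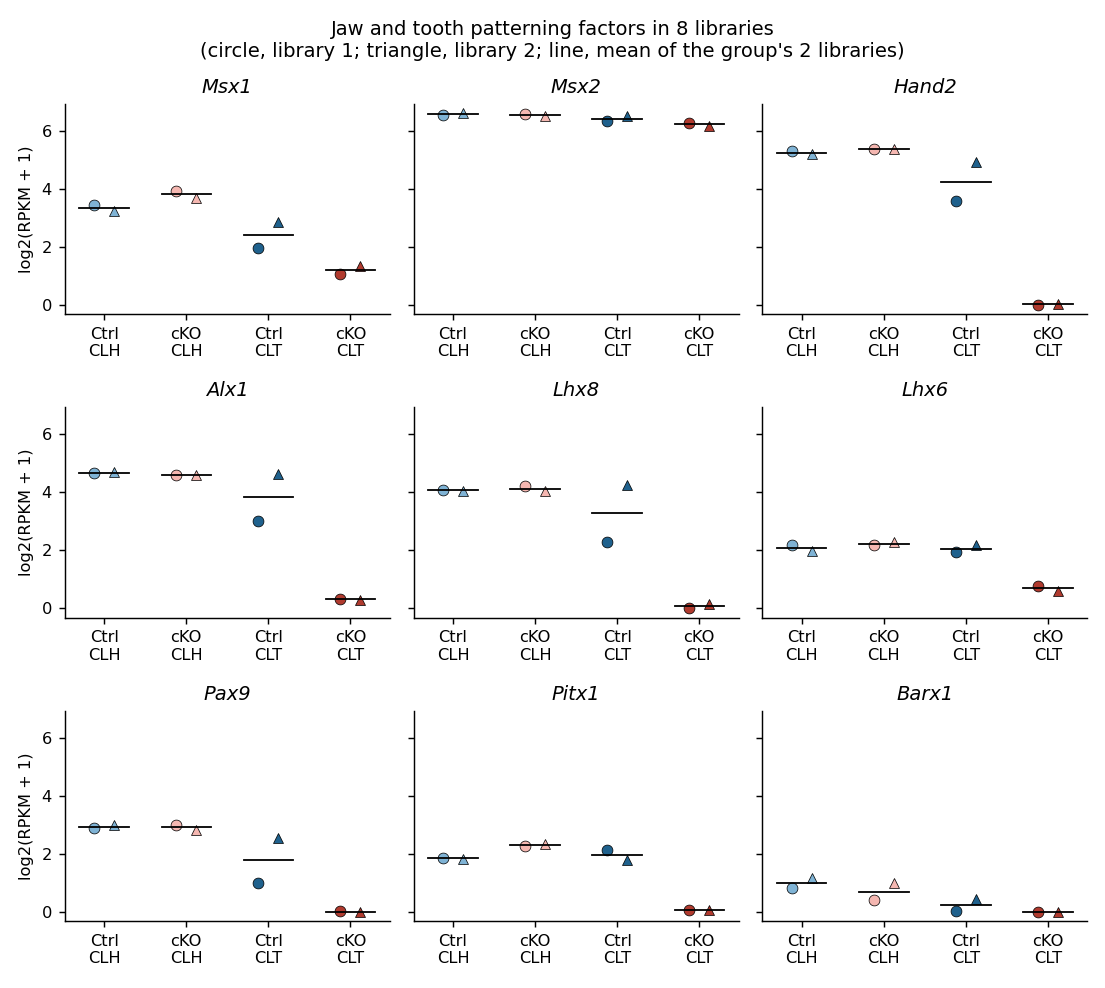
log2(RPKM + 1) of the 9 factors in the 8 libraries (circle, library 1; triangle, library 2; line, mean of the 2 libraries of a group). The points of cKO CLT lie under those of the other groups for all 9 factors, at or near 0 for *Hand2*, *Lhx8*, *Pax9*, *Pitx1* and *Barx1*, and *Msx2* stays above 6 in every library.

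*Hand2*, the ventral arch factor, lies on chromosome 8 at 57320983-57324517 (mm10). Its RPKM was 10.8 and 29.3 for the Ctrl CLT pair against 0 and 0.0164 for the cKO CLT pair, the latter from 1 read in all. Ctrl CLT 1 held 37.0% of the level of Ctrl CLT 2, and was still far above both cKO libraries. The reads of the Ctrl CLT libraries over those of cKO CLT, each scaled by the library totals, gave a ratio of 2422 (exact 95% interval 434 to 95721, counting error only), of 3617 without Ctrl CLT 1 and of 1337 without Ctrl CLT 2. On the log2(RPKM + 1) scale the difference was -4.23 ± 0.51 (SE, n = 2 against 2, limma adjusted p = 0.053), and -4.91 without Ctrl CLT 1. Over all alternatives the adjusted p of *Hand2* in this comparison ranged from 3.1e-09 to 0.28. GENCODE M21 places 461 bases of exons of *Hand2os1* on the opposite strand over *Hand2* exons, and the strand setting of the counting is not given in the sources used here.

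*Alx1* (chromosome 10, 103007847-103028777) stood at RPKM 7.03 and 24.0 in the Ctrl CLT pair against 0.258 and 0.221 in the cKO CLT pair. Both cKO libraries were low and close together, and the spread lay in Ctrl CLT. The ratio of reads was 63.1 (44.8 to 92.0), 100.3 without Ctrl CLT 1 and 29.4 without Ctrl CLT 2, and the fitted difference was -3.52 ± 0.60 (limma adjusted p = 0.065). *Lhx8* (chromosome 3, 154306294-154330560), a LIM factor of the oral mesenchyme, gave 3.84 and 18.1 in the Ctrl CLT pair against 0 and 0.111 in the cKO CLT pair. All 6 reads of *Lhx8* in cKO CLT came from 1 library. Its ratio of reads was 194 (88.8 to 530), 330 without Ctrl CLT 1 and 69.9 without Ctrl CLT 2, with a fitted difference of -3.19 ± 0.72 (adjusted p = 0.081).

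*Lhx6* (chromosome 2, 36081953-36105408), the LIM partner of *Lhx8*, had a smaller difference. The RPKM was 2.80 and 3.51 for the Ctrl CLT pair against 0.708 and 0.523 for the cKO CLT pair, a 5.09-fold ratio of reads (4.19 to 6.23). The 2 Ctrl CLT libraries were close for this gene, so that leaving out the first or second of them gave 5.69 or 4.54. The fitted difference of -1.36 ± 0.20 had an adjusted p of 0.062 in limma. Unlike *Lhx8*, *Lhx6* kept reads in both cKO CLT libraries (122 in all).

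*Pitx1* (chromosome 13, 55825054-55831425), the lower jaw factor, stood at RPKM 3.35 and 2.41 in the Ctrl CLT pair against 0.0437 and 0.0449 in the cKO CLT pair, 3 reads in each cKO library. It was the member for which Ctrl CLT 1 was the higher of its pair (139% of Ctrl CLT 2), while the other 8 ranged from 6.99% for *Barx1* to 87.7% for *Msx2*. Its ratio of reads was 65.5 (29.8 to 180), and it was 54.4 with Ctrl CLT 1 left out and 75.6 with Ctrl CLT 2 left out. The fitted difference was -1.88 ± 0.21 (limma adjusted p = 0.049). The call was lost without either cKO CLT library (the adjusted p ranged from 2.5e-06 to 0.46 over the alternatives), with no filter on low values, with a filter on the mean RPKM, after median-of-ratios scaling and with voom.

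*Pax9* (chromosome 12, 56695639-56711230) stood at RPKM 1.01 and 4.89 in the Ctrl CLT pair against 0.0139 and 0 in the cKO CLT pair, 1 read in all. Of the tested factors it had the largest gap between the Ctrl CLT libraries, the first of which held 20.6% of the level of Ctrl CLT 2. The ratio of reads was 407 (72.7 to 16116), with 697 when Ctrl CLT 1 was left out and 144 when Ctrl CLT 2 was, and the fitted difference was -1.77 ± 0.57 (limma adjusted p = 0.12). *Pax9* shares 189 exon bases with *Slc25a21* on the opposite strand. *Barx1* (chromosome 13, 48663036-48666507), the molar field factor, was near the floor throughout CLT. It had 1 and 13 reads in Ctrl CLT (RPKM 0.0251 and 0.359) and 0 in both cKO CLT libraries, at least 2.41-fold lower against a floor of 3 reads per library, and no fold can be given without Ctrl CLT 2. It reached an RPKM of 1 in 1 library only and was not tested.

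The 2 *Msx* genes differed in size of effect. *Msx1* (chromosome 5, 37820491-37824585) stood at RPKM 2.83 and 6.23 in the Ctrl CLT pair against 1.07 and 1.52 in the cKO CLT pair, and the 58 and 80 reads of the cKO libraries made it the second most abundant of the 9 there. The ratio of reads was 3.44 (2.84 to 4.19), 4.82 without Ctrl CLT 1 and 2.19 without Ctrl CLT 2, and the fitted difference was -1.20 ± 0.38 (limma adjusted p = 0.11). *Msx2* (chromosome 13, 53466881-53472780) gave 78.8 and 89.9 in the Ctrl CLT pair against 76.3 and 70.4 in the cKO CLT pair, a ratio of 1.15 (1.11 to 1.18). Its fitted difference was -0.20 ± 0.15 (adjusted p = 0.39), smaller than that of the other 7 tested factors. Without Ctrl CLT 1 the difference of *Msx2* was -0.29.

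In CLH none of the 9 factors was lost in the cKO libraries. Limma called 0 of the 8 tested and 0 of the 14148 genes (0% in each direction; at an unadjusted p under 0.05, 684 genes were higher and 343 lower), with 2 factors at an unadjusted p under 0.05 and 0 factors called by voom. *Hand2* stood at RPKM 38.0 and 35.4 in the Ctrl CLH pair against 39.8 and 40.1 in the cKO CLH pair, a fitted difference of 0.12 ± 0.06. *Alx1* had 24.5 and 24.7 against 23.3 and 23.3, *Lhx8* 16.0 and 15.4 against 17.6 and 15.3, and *Pax9* 6.44 and 6.88 against 6.91 and 6.15. For *Lhx8* and *Pax9* the groups overlapped. *Lhx6* had 3.52 and 2.89 against 3.50 and 3.87, *Msx2* had 91.4 and 95.9 against 93.4 and 90.0, and *Barx1* had 0.747 and 1.26 against 0.327 and 0.969, and these groups overlapped as well.

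Both cKO CLH libraries exceeded both Ctrl CLH libraries for 3 of 9 factors, *Msx1*, *Pitx1* and *Hand2* (19.9% of all genes did), and were under both for 1, *Alx1* (18.8%). *Msx1* stood at RPKM 9.73 and 8.38 in the Ctrl CLH pair against 14.2 and 11.7 in the cKO CLH pair, a difference of 0.47 ± 0.13 (limma unadjusted p = 0.016, adjusted p = 0.69). *Pitx1* had 2.66 and 2.57 against 3.85 and 4.04, a difference of 0.45 ± 0.09 (unadjusted p = 0.0042, adjusted p = 0.69). The direction for *Msx1* and *Pitx1* was thus opposite to that in CLT, and it did not pass adjustment over all genes. For these 2 genes the lowest adjusted p over the alternatives was 0.43, with voom.

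The cKO effect in CLT was set against that in CLH as an interaction over the 8 libraries, in which both effects enter with their own Ctrl libraries. The 4 groups shared a single estimate of the spread, though the Ctrl CLT libraries differed most from each other. All 8 tested factors had a more negative difference in CLT, and 6 of 8 passed the adjusted threshold (9.58% of all genes passed in this direction). *Hand2* had -4.35 ± 0.56 (limma adjusted p = 0.0089), *Alx1* -3.44 ± 0.67 (0.024) and *Lhx8* -3.25 ± 0.81 (0.043). *Pitx1*, whose values in CLH and CLT went opposite ways, had -2.33 ± 0.22 (0.0041). *Msx1* had -1.68 ± 0.43 (0.047) and *Lhx6* -1.52 ± 0.23 (0.013). *Pax9*, with -1.75 ± 0.65 (adjusted p = 0.10), and *Msx2*, with -0.17 ± 0.14 (0.41), did not pass. Leaving out any single library other than the Ctrl CLT ones left 1 call, *Pitx1*, with 1.39% to 1.87% of all genes called lower. Leaving out Ctrl CLT 1 gave 7 calls (34.7% of all genes), as did leaving out Ctrl CLT 2 (20.1%).

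**Figure D3:**
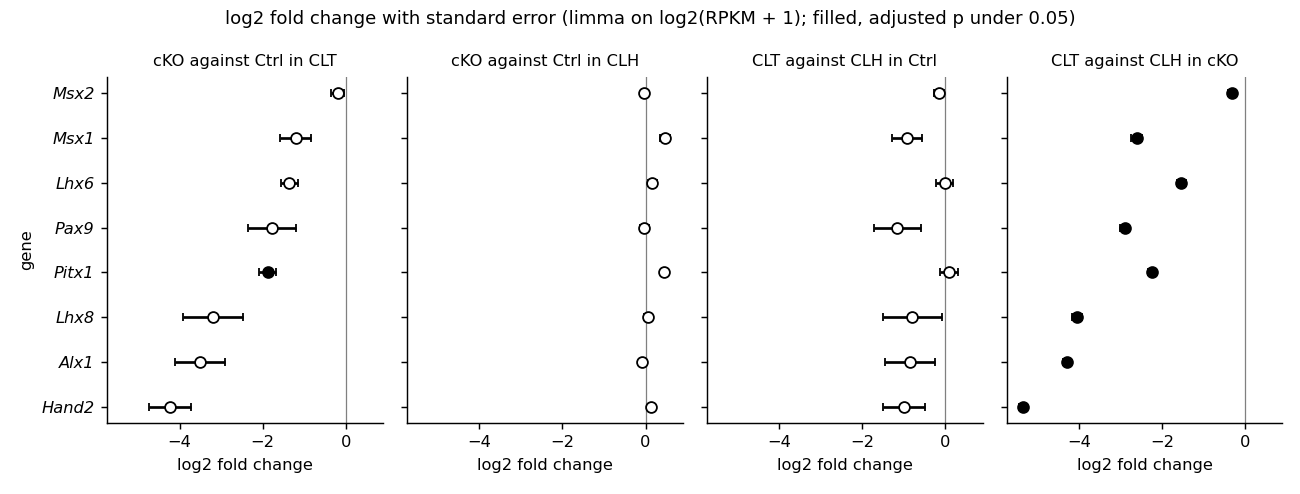
log2 fold change on the log2(RPKM + 1) scale (horizontal axis, points) with its standard error (bars) for the 8 tested factors in 4 comparisons of 2 against 2 libraries, filled where the limma adjusted p was under 0.05. The bars are wide where Ctrl CLT enters (cKO against Ctrl in CLT, and CLT against CLH in Ctrl), and the panel of CLT against CLH in cKO has all 8 points filled.

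Between the regions of the cKO mice the libraries were tight and the differences clear of the spread. All 9 factors were lower in both cKO CLT libraries than in both cKO CLH libraries (52.3% of all genes were), and all 8 tested passed the threshold (45.1% of all genes did in this direction). Over all genes 4084 were called higher and 6384 lower, against 5270 and 4884 after median-of-ratios scaling. Their median log2 difference was -2.75, against -0.18 over all genes. *Hand2* went from 39.8 and 40.1 in cKO CLH to 0 and 0.0164 in cKO CLT, a ratio of reads of 4937 (886 to 195036) and a difference of -5.34 ± 0.10 (limma adjusted p = 1.1e-09). *Alx1* differed by -4.29 ± 0.10 (3.8e-09), *Lhx8* by -4.05 ± 0.12 (1.4e-08) and *Pax9* by -2.90 ± 0.11 (5.7e-08), with 933, 301 and 97.3 as the ratios of reads of *Pax9*, *Lhx8* and *Alx1*. *Msx1* fell 10.1-fold by its reads (-2.61 ± 0.13, adjusted p = 4.9e-07), *Pitx1* 88.8-fold (-2.24 ± 0.10, 2.0e-07) and *Lhx6* 5.95-fold (-1.54 ± 0.11, 4.0e-06). *Barx1* was at least 8.13-fold lower in cKO CLT, at least 12.2-fold with cKO CLH 1 left out and at least 4.10-fold with cKO CLH 2 left out.

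*Msx2* was the exception in size. It differed by -0.32 ± 0.09 between cKO CLT and cKO CLH (limma adjusted p = 0.0095), a ratio of 1.25, next to the shift of -0.18 in the median of all genes. After median-of-ratios scaling, which moved that median to 0.02, the difference of *Msx2* was -0.10 (adjusted p = 0.33, the highest over the alternatives, of which the lowest was 0.00052) and the other 7 calls held. The call of *Msx2* was also lost without cKO CLH 1 (adjusted p = 0.057) and without cKO CLT 2 (0.088). As a share of the Ctrl CLH mean, *Msx2* kept 81.4% and 75.2% in the cKO CLT libraries, while *Hand2* kept 0% and 0.0447%.

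In the Ctrl mice the same regional comparison turned on which CLT library was read. Both Ctrl CLT libraries were under both Ctrl CLH libraries for 6 of 9 factors (36.8% of all genes), and limma called 0 of 8 (0% of all genes in this direction), with 0 at an unadjusted p under 0.05 and 0 called by voom. *Pax9* differed by -1.15 ± 0.57, *Hand2* by -0.99 ± 0.50, *Msx1* by -0.93 ± 0.36, *Alx1* by -0.85 ± 0.59 and *Lhx8* by -0.80 ± 0.72, with limma adjusted p from 0.40 to 0.61. Without Ctrl CLT 1 the difference was -0.38 for *Pax9*, -0.32 for *Hand2*, -0.47 for *Msx1* and -0.03 for *Alx1*. *Pitx1* (0.09 ± 0.21) and *Lhx6* (-0.02 ± 0.20) had differences close to 0, and the sign for *Lhx6* turned after median-of-ratios scaling (0.11). Ctrl CLT 2 alone was close to CLH for several factors. Its *Alx1* (24.0) lay within the CLH range of 23.3 to 24.7, its *Lhx6* (3.51) within 2.89 to 3.87, and its *Lhx8* (18.1) above the CLH maximum of 17.6. *Hand2* (29.3 against a CLH minimum of 35.4), *Msx1* (6.23 against 8.38) and *Pax9* (4.89 against 6.15) were lower there. With Ctrl CLT 1 left out, the difference was 0.20 for *Lhx8* and -0.08 for *Pitx1*, and 0 of 8 were called (1.40% of all genes were called lower). With Ctrl CLT 2 left out, 5 of 8 were called, each lower in CLT, as were 34.9% of all genes.

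**Figure D4:**
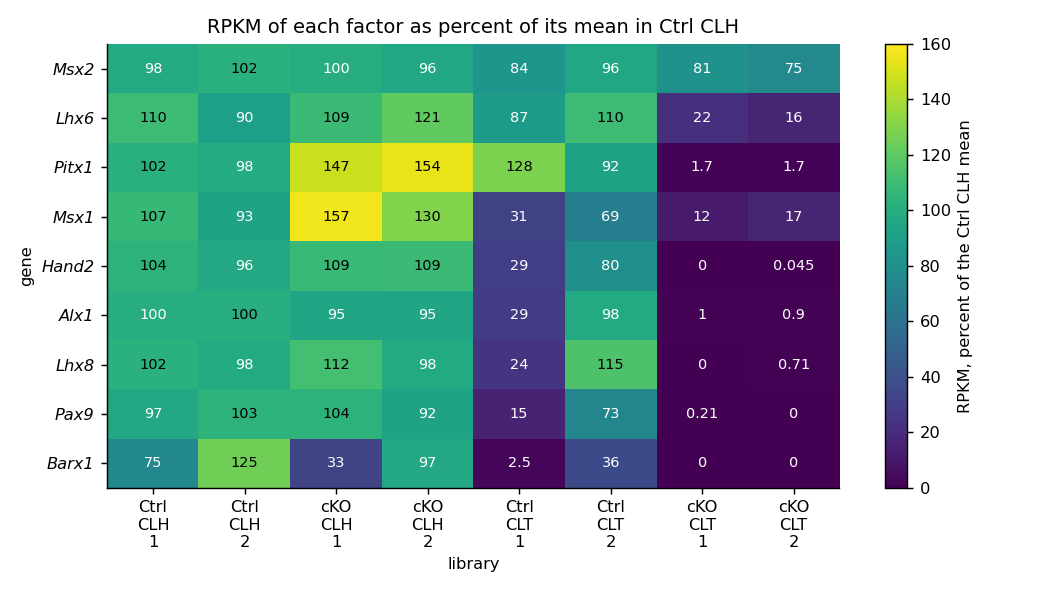
RPKM of each factor in each library as a percentage of its mean in Ctrl CLH (colour scale and printed values). The cKO CLT columns are at or under 16.8% for every factor other than *Msx2* and *Lhx6*, and Ctrl CLT 1 lies between them and Ctrl CLT 2 for all factors other than *Pitx1*.

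RPKM is scaled by gene length, so levels can be ordered between genes. In Ctrl CLH the order was *Msx2* (93.6 ± 3.2, mean RPKM ± SD, n = 2), *Hand2* (36.7 ± 1.9), *Alx1* (24.6 ± 0.12), *Lhx8* (15.7 ± 0.43), *Msx1* (9.06 ± 0.96), *Pax9* (6.66 ± 0.31), *Lhx6* (3.20 ± 0.44), *Pitx1* (2.61 ± 0.064) and *Barx1* (0.747 and 1.26 in the 2 libraries). No neighbours in that order overlapped in their libraries. The order was the same in cKO CLH but for *Pitx1* (3.94 ± 0.13) and *Lhx6* (3.68 ± 0.26), which changed places and overlapped. In Ctrl CLT every neighbour pair from *Hand2* down to *Pitx1* overlapped, between *Msx2* at the top and *Barx1* at the bottom. *Hand2* and *Alx1* nevertheless lay above *Msx1*, *Pax9*, *Lhx6* and *Pitx1* in both libraries. In cKO CLT *Msx2* (73.4 ± 4.1) was followed by *Msx1* (1.30 ± 0.32), *Lhx6* (0.615 ± 0.13) and *Alx1* (0.239 ± 0.026), without overlap, and the other 5 were at or under 0.111 in each library.

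RefSeq promoter windows are shown for 3 of the factors, *Hand2* (lost in cKO CLT), *Lhx6* (reduced) and *Msx1* (reduced and the second most abundant there). That of *Msx2*, which changed least, is not printed. RefSeq on GRCm38.p6, the assembly of mm10, gave windows for 7 of the 9, and *Alx1* and *Pitx1* were not matched. The windows are the 250 bases before the annotated start, 5′ to 3′ on the strand of the gene. They lie at chr8:57320733-57320982 (plus strand) for *Hand2*, chr2:36105409-36105658 (minus strand) for *Lhx6* and chr5:37824586-37824835 (minus strand) for *Msx1*. Capitals mark every match, on either strand, to the motif letters TAATTA and TAATTG (homeodomain), CATCTG (basic helix-loop-helix) and TATAAA. The first and second of these share TAATT, and CAATTA is TAATTG on the other strand.
Hand2: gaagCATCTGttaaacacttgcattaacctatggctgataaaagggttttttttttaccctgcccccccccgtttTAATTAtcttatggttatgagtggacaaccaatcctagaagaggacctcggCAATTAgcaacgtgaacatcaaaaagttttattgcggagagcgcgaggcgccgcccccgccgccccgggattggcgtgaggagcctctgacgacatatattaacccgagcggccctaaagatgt
Lhx6: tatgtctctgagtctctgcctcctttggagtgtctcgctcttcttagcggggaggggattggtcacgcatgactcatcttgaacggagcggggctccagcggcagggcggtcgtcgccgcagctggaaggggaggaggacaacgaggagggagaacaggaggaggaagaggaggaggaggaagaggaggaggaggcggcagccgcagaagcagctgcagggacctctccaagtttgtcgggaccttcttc
Msx1: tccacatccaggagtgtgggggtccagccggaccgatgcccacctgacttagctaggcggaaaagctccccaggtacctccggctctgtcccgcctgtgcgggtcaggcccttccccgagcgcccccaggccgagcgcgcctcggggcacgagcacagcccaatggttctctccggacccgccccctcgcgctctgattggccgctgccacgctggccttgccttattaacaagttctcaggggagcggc
The *Hand2* window held 1 TAATTA, 1 CAATTA and 1 CATCTG, and the *Lhx6* and *Msx1* windows held none of the 4. Of 32851 RefSeq windows of this length, 4.84% held TAATTA, 7.17% TAATTG, 14.4% CATCTG and 12.4% TATAAA on either strand. Elsewhere among the 9 windows of the 7 factors, the window of *Msx2* held 1 TAATTA and another start of *Lhx6* held 1 TAATTG, and the windows of *Lhx8*, *Barx1* and *Pax9* held none of the 4. The median GC content was 57.2% in these 9 windows and 52.4% in all, and the median number of CpG was 15 and 6. A match of letters is a description only.

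Other factors of the same network were read from a list of 28 genes, of which 23 were tested. In CLT, cKO against Ctrl, 3 of the 23 fell past the threshold and 0 rose (1.68% and 0.0777% of all genes). The median difference of the 23 was -0.96, against -0.01 for all genes tested. Without Ctrl CLT 1, 16 were called lower and 5 higher (38.1% and 31.4% of all genes) with a median of -1.42, and the fit of all 8 libraries called 12 lower and 3 higher (20.0% and 23.7% of all genes). The most negative values of the list were those of *Isl1*, *Foxf2* and *Dlx5*. *Isl1*, which marks incisor epithelium, stood at RPKM 21.9 and 21.3 in the Ctrl CLT pair against 0.734 and 0.479 in the cKO CLT pair (-3.82 ± 0.18, limma adjusted p = 0.021), and its Ctrl CLT libraries were close to each other. The study names *Isl1* among enamel lineage factors that it reports as reduced in cKO CLT by RNA-seq, so this direction is not independent evidence. The forkhead gene *Foxf2* had 9.74 and 21.4 against 0.121 and 0.124 (-3.79 ± 0.41, adjusted p = 0.048). *Dlx5*, a distal-less homeobox gene of the lower jaw domain of the arch, had 15.1 and 37.8 against 0.710 and 0.991 (-3.76 ± 0.48, adjusted p = 0.057). For *Foxf2* and *Dlx5* Ctrl CLT 1 lay between Ctrl CLT 2 and the cKO libraries. The third gene called, named after its values were seen, was *Dlx2* (-1.39, adjusted p = 0.046). Without Ctrl CLT 1 the difference was -3.80 for *Isl1*, -4.32 for *Foxf2*, -4.39 for *Dlx5* and -1.42 for *Dlx2*.

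The largest positive values in that list did not pass the threshold in the 4 CLT libraries. *Lef1*, a nuclear partner of beta-catenin used in tooth and hair, gave 7.85 and 2.80 in the Ctrl CLT pair against 21.8 and 20.9 in the cKO CLT pair (1.95 ± 0.45, limma adjusted p = 0.083). *Barx2*, a relative of *Barx1*, had 28.8 and 10.9 against 37.3 and 44.9 (1.16 ± 0.49, adjusted p = 0.18). *Osr1*, an odd-skipped factor, had 0.374 and 0.206 against 1.88 and 1.57 (1.08 ± 0.20, adjusted p = 0.069). For *Lef1* and *Barx2* Ctrl CLT 1 lay between Ctrl CLT 2 and the cKO libraries. Without Ctrl CLT 1 the differences were 2.56 for *Lef1*, 1.82 for *Barx2* and 1.17 for *Osr1*. Between cKO CLT and cKO CLH 17 of the 23 were lower and 5 higher past the threshold, as were 45.1% and 28.9% of all genes.

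Of 14 signal genes of the network 13 were tested, and limma called 0 of them in CLT (1.68% of all genes were called lower and 0.0777% higher). An unadjusted p under 0.05 was reached by 7, and over all 14148 genes by 2314 that were lower and 2802 that were higher. Without Ctrl CLT 1, 11 had a negative and 2 a positive difference, with a median of -1.08 against -0.95 with it. The fit of all 8 libraries called 8 lower and 1 higher (20.0% and 23.7% of all genes). *Bmp4*, the BMP ligand that acts with *Msx1*, gave 45.3 and 46.8 in the Ctrl CLT pair against 20.9 and 22.3 in the cKO CLT pair (-1.06 ± 0.14, adjusted p = 0.057), and the 2 libraries of each group were close. *Shh* had 10.5 and 46.1 against 4.13 and 3.52 (-2.27 ± 0.73, adjusted p = 0.12), and *Bmp2* (-1.34, 0.11) and the endothelin receptor gene *Ednra* (-1.15, 0.15) had the next largest negative values. *Edn1*, the ligand that acts upstream of *Hand2* in the arch, went the other way, with 5.09 and 2.53 in the Ctrl CLT pair against 16.8 and 16.5 in the cKO CLT pair (1.93 ± 0.31, adjusted p = 0.064). The BMP and activin antagonist gene *Fst* had a difference of 0.43 (adjusted p = 0.22). Without Ctrl CLT 1 the differences were -3.29 for *Shh*, -1.91 for *Bmp2*, -1.72 for *Ednra*, -1.08 for *Bmp4*, 2.32 for *Edn1* and 0.65 for *Fst*. In the interaction with region limma called 1 of the 13 lower, *Bmp4* (-0.99, adjusted p = 0.012), and 1 higher, *Edn1* (2.05, adjusted p = 0.019). Over all 14148 genes it called 1355 lower and 1139 higher.

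**Figure D5:**
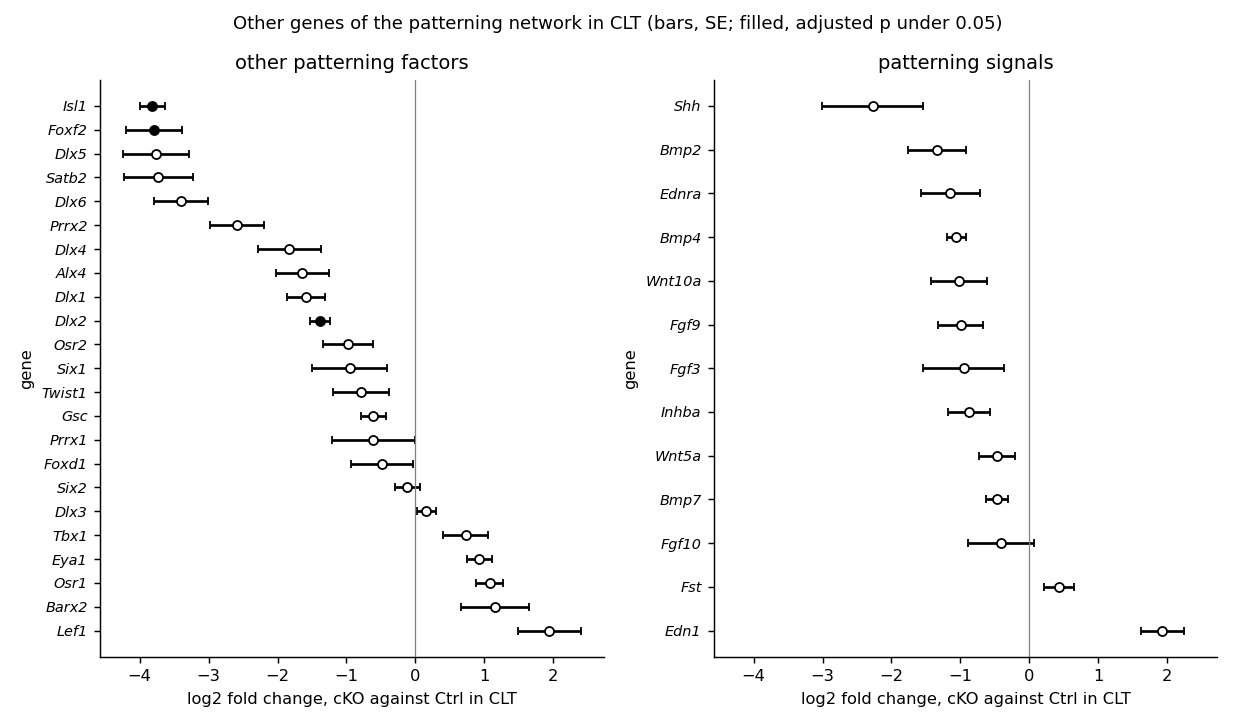
log2 fold change in cKO against Ctrl in CLT on the log2(RPKM + 1) scale (points) with its standard error (bars) for 23 other patterning factors and 13 signal genes, filled where the limma adjusted p was under 0.05. *Isl1*, *Foxf2* and *Dlx2* are filled and negative, and *Lef1* and *Edn1* have the largest positive values of their lists.

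The genes most like each factor were found over the 8 libraries as those with the smallest root mean square difference of centred log2(RPKM + 1). The likeness is a description over libraries that do not spread evenly, with cKO CLT low for most of these factors and Ctrl CLT 1 between cKO CLT and the rest for several. *Alx1* was nearest to the mesenchymal cadherin gene *Cdh11* (0.068) and then to *A730017C20Rik* (0.16). *Pax9* was nearest to *Pdgfra* (0.097), a growth factor receptor gene of mesenchyme, and to the collagen gene *Col8a1* (0.10). A gene near *Hand2* was *Nts* (0.16), which encodes neurotensin. *Lhx8* was nearest to *Chn1* (0.11) and *Gsta4* (0.12), *Msx1* to *Tmem200b* (0.11) and *Limk1* (0.13), and *Pitx1* to *Man2b2* (0.099) and *Clip2* (0.13). *Msx2* and *Lhx6* spanned less than 2 on the log2 scale over the 8 libraries (0.44 and 1.68) and were not matched. *Pdgfra*, at 13.5 and 38.5 in the Ctrl CLT pair against 6.03 and 5.76 in the cKO CLT pair, kept a level in cKO CLT that *Pax9*, with 1 read there, did not.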

How the data were processed

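RNA-seq of 8 libraries was analysed. Per the labels and the methods, TruSeq libraries were sequenced as paired 50-base reads and checked with FastQC 0.72. The submitters' processing notes name Trim Galore 0.4.3.1, STAR 2.6.0b-1 (mm10), featureCounts 1.6.3 and DESeq2 2.11.40.2. The authors deposited RPKM values for 23358 genes with each gene's length. The annotation, the strand setting and the total behind the RPKM are not given in the sources used here. RPKM multiplied by length was a whole multiple of 1 step (tolerance 0.1 read) for 100% of the values checked, which gave the reads behind each value.

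log2(RPKM + 1) was tested with limma 3.58.1 (lmFit and trended eBayes, under R 4.3.3) for genes with RPKM of at least 1 in at least 2 libraries (14148), with Benjamini-Hochberg adjustment at 0.05. Each comparison used its own 4 libraries, and the interaction used all 8. An exact permutation test of 2 against 2 cannot give a p under 0.333. Each library is a pool of tissues, so p-values measure the spread between pools. A group left with 1 library adds nothing to that spread. Ratios of reads have exact 95% intervals, and ratios against 0 reads use a floor of 3 reads per library. Both cover counting error only. Motifs were searched in RefSeq windows, and overlapping genes came from GENCODE M21. Scripts were tested on simulated data.

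The factors, the lists of other factors, signals and tissue markers, and the rule for named genes were chosen with earlier results of these data known. That rule took all 9 factors, *Med1*, the 2 nearest genes of each factor spanning at least 2 on the log2 scale, the 3 largest fold changes per direction in CLT in each list, and *Bmp4*. Results of a few other genes are not reported here, and the list counts leave them out. The alternatives tried were a pseudocount of 0.1 or 0.5, scaling by median of ratios, no filter, a filter on the mean, a replicate block, voom on the recovered reads, all 8 libraries in 1 fit and each library left out. Fits without Ctrl CLT 1 over the other 7 libraries and a crossed block were chosen after seeing the data. The ChIP-seq and microarrays of the study were not analysed here.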

Additional observations from a re-analysis of the deposited data

Results flagged for a closer look

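For 6 of the 8 tested factors the cKO effect was more negative in CLT than in CLH by the interaction test over 8 libraries. Over all tested genes 9.58% passed in this direction. All of these calls but that of *Pitx1* were lost when any single library outside Ctrl CLT was left out. The difference of the effects was -4.35 for *Hand2*, -3.44 for *Alx1*, -3.25 for *Lhx8*, -2.33 for *Pitx1*, -1.68 for *Msx1* and -1.52 for *Lhx6*, all on the log2(RPKM + 1) scale. In CLT both cKO libraries were under both Ctrl libraries for each of the 6. In CLH *Hand2*, *Pitx1* and *Msx1* were higher in both cKO libraries, *Alx1* was lower in both, and *Lhx6* and *Lhx8* overlapped. With voom 2 of the 6 calls were made, *Pitx1* and *Lhx6*.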

How the results depend on the processing

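In CLT, cKO against Ctrl, 1 factor was called lower in the main test and 2 with a pseudocount of 0.1 or 0.5 (*Pitx1* and *Hand2*). The count was 0 without a filter, with a filter on the mean RPKM or with voom, and 7 with all 8 libraries in 1 fit. It also changed with the library left out. After median-of-ratios scaling the 1 call was *Hand2* (adjusted p = 0.044) in place of *Pitx1*. Over all genes the same test called 237 lower and 11 higher, against 2831 and 3352 in the fit of 8 libraries, 3 and 0 without a filter, and 0 and 0 with voom. It called 238 lower and 9 higher with a pseudocount of 0.1, 253 and 11 with 0.5, and 223 and 10 with a filter on the mean RPKM. CLT against CLH in Ctrl gave 0 factors called lower with all libraries kept, and the count changed with the library left out. The interaction called 6 factors and 1355 genes lower, against 2 and 1113 with voom, and its count also changed with the library left out. CLT against CLH in cKO gave 7 or 8 under every alternative, and CLH gave 0. The cause of these changes was not tested. Where a library is left out of a group of 2, the lone library is assumed to vary like those of the other groups.

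Signs turned in 2 comparisons. In CLT against CLH in Ctrl these were *Msx2* (0.020) and *Lhx6* (0.11) after median-of-ratios scaling. In the fit of all libraries without Ctrl CLT 1 they were *Pitx1* (-0.083), *Lhx6* (0.11) and *Lhx8* (0.20), and over single libraries left out the ranges were -0.083 to 0.27, -0.14 to 0.11 and -1.79 to 0.20. In cKO against Ctrl in CLH the ranges over libraries left out were -0.064 to 0.0049 for *Msx2*, -0.099 to 0.046 for *Pax9* and -0.033 to 0.16 for *Lhx8*.

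The study used 2 litters, and nothing in the labels says which replicate number stands for which litter. Same-numbered libraries deviated with a correlation of -0.19 in CLT, 0.066 in CLH, 0.20 in Ctrl and 0.31 in cKO. With a replicate block 5 factors were called lower in CLT (888 of all genes higher and 856 lower) and 4 in the interaction (513 higher and 935 lower). A crossed block, chosen after seeing the data, called 0 factors and 0 genes higher and 9 lower. Depth limits *Barx1* throughout and the cKO CLT values of *Hand2* and *Pax9*, which rest on 1 read each.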
